A study of Mus musculus with 6 samples.

Results

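The imprinted gene Rtl1 on mouse chromosome 12 is overlapped by a row of microRNA (miRNA) hairpins, and 10 mature products of 7 of these hairpins were followed in mouse cortex with and without Fmr1. They were taken by name from a table of 1182 miRNA features: miR-337-3p, miR-431-5p, miR-433-3p, miR-127-3p, both arms of miR-434, both arms of miR-136, and both arms of miR-3071, which is annotated opposite miR-136. All 10 were present in the table. The KO group consisted of 3 small RNA libraries from brain cortex of adult male mice labelled fmr1 KO, and the WT group of 3 libraries from adult males labelled fmr1 WT. The design text calls the animals siblings, the labels describe them as age-matched, and no treatment was given. The strain and the construction of the Fmr1 allele are not described in the sources used here. The product of Fmr1, FMRP, binds RNA and controls translation in neurons. Its mRNA is not measured by small RNA sequencing, so the genotype labels could not be checked in these data.

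Rtl1 is a retrotransposon-derived gene of the Dlk1-Dio3 domain, and in mice it is expressed from the paternal chromosome. A transcript of the opposite strand is made from the maternal chromosome and is cut into miRNAs that pair perfectly with the Rtl1 mRNA and direct its cleavage. A miRNA otherwise finds most of its targets through its seed, a short stretch near its 5′ end. Each hairpin yields a 5p and a 3p arm, of which one is usually retained in larger amount.

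The mature sequences, from RefSeq on build GRCm38.p6, are printed 5′ to 3′ because their seeds and their match to Rtl1 define what each miRNA can bind. Capitals mark the seed, bases 2 to 8.
mmu-miR-337-3p: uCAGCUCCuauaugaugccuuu
mmu-miR-431-5p: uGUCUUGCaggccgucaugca
mmu-miR-433-3p: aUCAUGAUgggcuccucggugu
mmu-miR-127-3p: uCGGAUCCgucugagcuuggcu
mmu-miR-434-5p: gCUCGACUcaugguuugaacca
mmu-miR-434-3p: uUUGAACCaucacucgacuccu
mmu-miR-136-5p: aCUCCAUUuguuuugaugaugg
mmu-miR-136-3p: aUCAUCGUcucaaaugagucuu
mmu-miR-3071-5p: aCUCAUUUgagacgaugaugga
mmu-miR-3071-3p: aUCAUCAAaacaaauggagucc
No seed was shared between these 10, and none was shared with another mature miRNA of the RefSeq table. The closest pair with their 5′ ends aligned was miR-136-3p and miR-3071-3p, which had 12 of 22 bases in common, the first 6 among them.

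Of the 10 sequences, 7 were exact reverse complements of a site in the Rtl1 coding sequence, each at 1 place in the transcript. They came from the hairpins of miR-431 (chr12:109590447-109590537), miR-433 (chr12:109591715-109591838), miR-127 (chr12:109592846-109592915), miR-434 (chr12:109594506-109594599) and miR-136 (chr12:109595327-109595388), all on the plus strand. The miR-3071 hairpin (chr12:109595318-109595397) lies on the minus strand, which is that of Rtl1, and both of its products were identical to the Rtl1 coding sequence rather than complementary to it. It is thus not antisense to Rtl1. The miR-337 hairpin (chr12:109585789-109585885, plus strand) lies beyond the 3′ end of the GENCODE transcript Rtl1-201 (109589193 to 109600330, minus strand, 6358 bases in 2 exons). It falls within the longer span that RefSeq gives Rtl1 (109564900 to 109604418), and miR-337-3p had 0 matches in Rtl1-201. The group is therefore described below as the miRNAs of the Rtl1 locus, although other hairpins also lie within the RefSeq span.

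**Figure D1:**
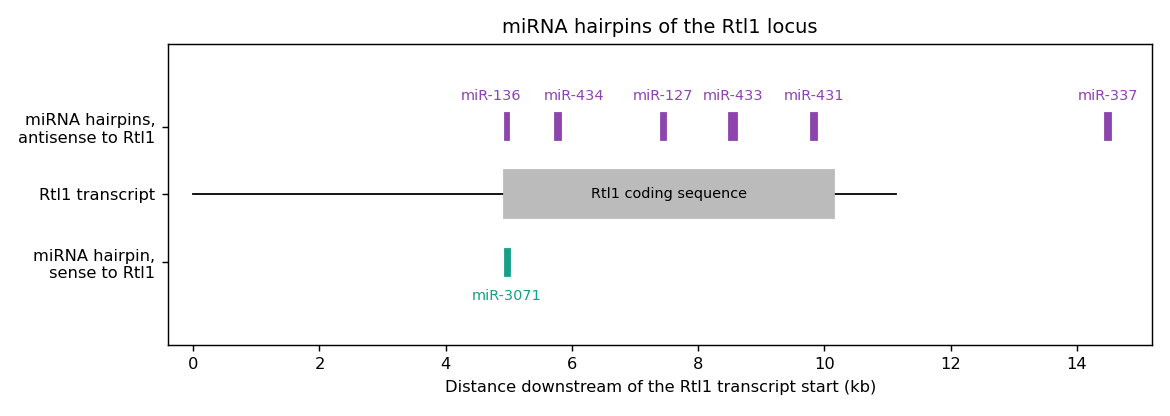
Map of the 7 hairpins along the GENCODE transcript Rtl1-201. The x axis gives the distance downstream of the transcript start in kilobases, the grey box is the coding sequence, hairpins above the line are antisense to Rtl1 and the hairpin below it is on the strand of Rtl1. The miR-136 and miR-3071 hairpins overlap at the start of the coding sequence, and miR-337 lies outside the transcript.

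Libraries held 11182888 to 14385332 miRNA reads in KO and 13225790 to 15733876 in WT. Levels are given as CPM, the read counts scaled to a common library size with TMM factors. All members are 21 or 22 bases long, so levels were not scaled for length. How evenly different sequences were ligated and amplified was not tested, so different miRNAs are compared in reads only. Differences were tested with the edgeR quasi-likelihood test over the features that passed the filter on low counts. The brain miRNAs miR-9-5p, miR-124-3p, miR-128-3p, miR-138-5p and miR-218-5p summed to 294500 to 442300 CPM in KO, against 321800 to 352400 CPM in WT, and the liver miRNA miR-122-5p stayed at or under 4.85 CPM in KO, against 5.13 CPM in WT. KO replicate 3 stood furthest from the WT libraries, with a median absolute difference of 0.46 log2 units over the tested miRNAs, against 0.29 and 0.26 in KO replicates 1 and 2 and 0.12 to 0.16 between each WT library and the other WT libraries. The choroid plexus miRNAs miR-204-5p and miR-211-5p summed to 1624 CPM in KO replicate 3 and to 665.6 to 766.8 CPM in the other 5 libraries, while the epithelial and olfactory miRNAs miR-200a-3p, miR-200b-3p, miR-141-3p and miR-429-3p summed to 15.0, 871.3 and 936.6 CPM in KO replicates 1, 2 and 3, against 81.7 to 276.9 CPM in WT. The sum of the oligodendrocyte miRNAs miR-219a-2-3p and miR-338-3p was lowest in KO replicate 3, at 550.7 CPM, against 760.2 to 872.7 CPM in WT, although miR-338-3p, the rarer of the pair, was highest in that library. The counts of miR-338-3p equalled those of a miRNA overlapping it on the opposite strand, so the 2 cannot be told apart. The erythroid miRNAs miR-451a and miR-144-3p summed to 80.9 CPM in KO replicate 3. The sums were 44.0 and 37.1 CPM in KO replicates 1 and 2 and 29.5 to 40.5 CPM in WT. The rarer of them, miR-144-3p, was not raised in KO replicate 3, at 0.74 CPM, against 0.75 and 0.93 CPM in KO replicates 1 and 2. The part of these differences in marker miRNAs in the values below was not tested. In whole cortex, fewer cells of a type and less of a miRNA per cell cannot be told apart.

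The miRNAs of the Rtl1 locus were abundant, and 2 of them carried most of the reads. The 10 members summed to 27238, 31699 and 18071 CPM in KO replicates 1, 2 and 3, against 28412, 25566 and 28665 CPM in WT replicates 1, 2 and 3. KO replicate 3 was the lowest library and the other KO libraries lay on both sides of the WT mean, so the groups overlapped. These sums correspond to 2.97%, 2.62% and 1.96% of all miRNA reads in KO and to 2.92%, 2.63% and 2.77% in WT. The ratio of the mean sums was -0.10 on the log2 scale, and it was 0.10 without KO replicate 3. With miR-3071-5p left out, whose counts repeat those of miR-136-3p, miR-127-3p and miR-434-5p made up 89.6% to 90.0% of the sum in KO and 88.1% to 90.6% in WT. Their ranks by mean level among all tested miRNAs were 17 and 18.

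None of the 9 members that passed the filter was called at an adjusted p below 0.05. Over all tested miRNAs, of which 284 had higher and 257 lower estimates in KO, the called share was also 0.0%. Neither DESeq2 nor limma-voom called any at an adjusted p below 0.05. At an unadjusted p below 0.05 in edgeR there were 35 miRNAs (6.47%), 18 with KO higher (3.33%) and 17 with KO lower (3.14%). Of the 9 members, 3 reached that unadjusted level. Of these, miR-136-5p and miR-3071-3p had higher KO values, and miR-433-3p had lower ones. The same 3 were the members whose KO and WT libraries did not overlap, as was found for 15.7% of all tested miRNAs, 5.18% with KO higher and 10.5% with KO lower. Estimates for the 9 ranged from -0.71 to 0.69 log2 units around a median of -0.0031, beside a median of 0.03 over all tested miRNAs. The 9 include miR-136-3p and miR-3071-5p, whose counts nearly coincide. With that pair counted once, 4 of 8 had higher and 4 lower estimates, around a median of 0.0042. The SD of log2 CPM was larger in KO than in WT for 7 of the 9 members and for 452 of all tested miRNAs, with medians of 0.38 in KO and 0.11 in WT for the members and 0.40 in KO and 0.14 in WT for all.

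**Figure D2:**
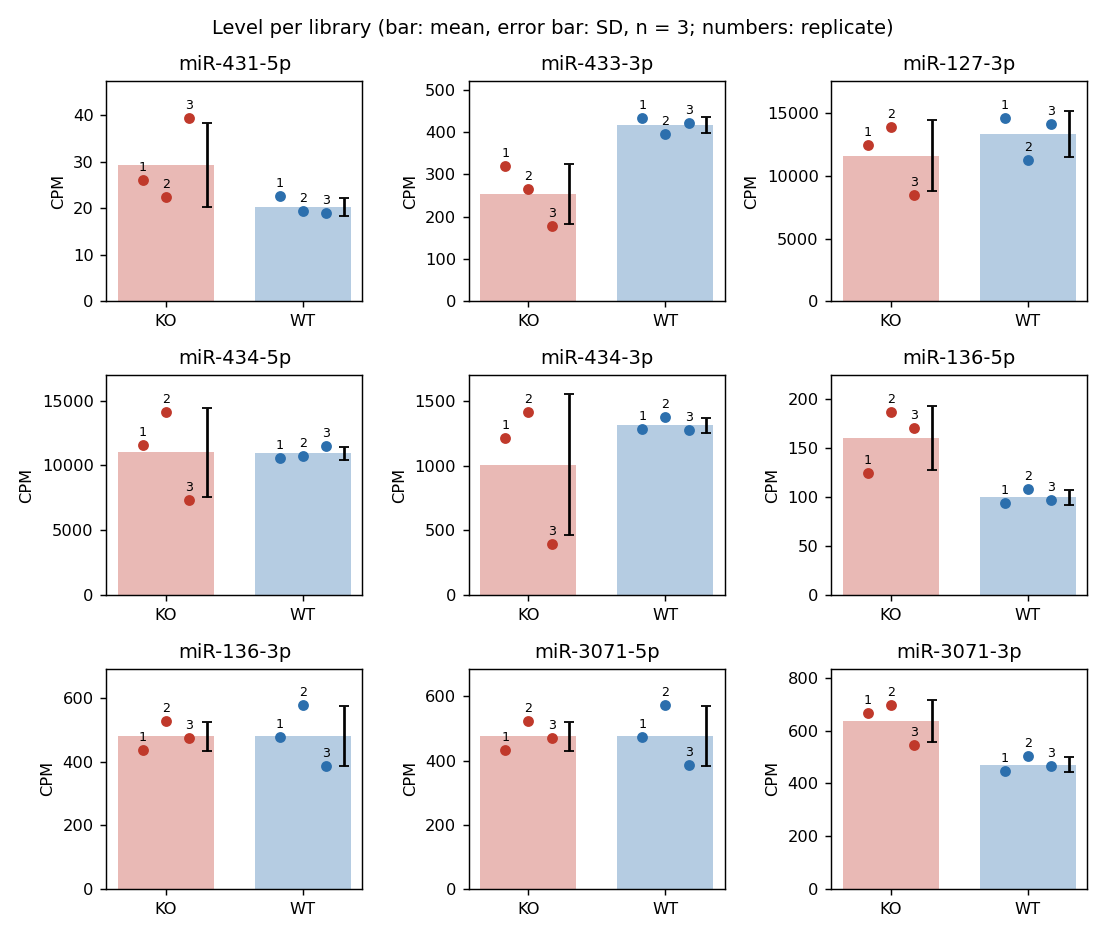
Level of the 9 tested members in each library. The y axis gives CPM from 0, bars are group means, error bars are SD over 3 libraries, and the points are the libraries with their replicate numbers. The KO and WT points are apart for miR-433-3p, miR-136-5p and miR-3071-3p, and KO replicate 3 is the lowest point for miR-127-3p, miR-434-5p and miR-434-3p.

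The member with the largest negative estimate was miR-433-3p, which pairs with a site within the Rtl1 coding sequence. Its levels were 319.7, 264.3 and 179.0 CPM in KO replicates 1, 2 and 3, against 433.8, 395.0 and 420.7 CPM in WT replicates 1, 2 and 3. Every KO library was thus below every WT library, and the lowest value was that of KO replicate 3. The means were 254.3 ± 70.9 CPM in KO, against 416.5 ± 19.8 CPM in WT (SD, n = 3 each); the log2 fold change was -0.71 (SE 0.23, with a 95% interval of -1.23 to -0.19, edgeR adjusted p = 0.694). Without KO replicate 3 the estimate was smaller, -0.50, and passed the threshold (edgeR adjusted p = 0.0424), in a fit where 18 of 560 miRNAs (3.21%) passed, 4 of them lower in KO (0.714%). The other arm, miR-433-5p, was rare. It had 5.73, 5.64 and 2.72 CPM in KO, against 6.88, 7.51 and 7.30 CPM in WT, again without overlap (log2 fold change -0.62, SE 0.30, edgeR adjusted p = 0.749). In reads, miR-433-3p exceeded miR-433-5p by 55.8, 46.9 and 65.8 times in KO and 63.0, 52.6 and 57.6 times in WT, so the arms stood in a similar ratio in both genotypes.

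The most abundant member, miR-127-3p, is encoded between miR-433 and miR-434 and is known in mice as one of the miRNAs that cleave Rtl1 mRNA. Its levels were 12460.2, 13907 and 8463 CPM in KO, against 14639, 11262 and 14124 CPM in WT. KO replicates 1 and 2 lay within the WT range and KO replicate 3 below it. The log2 fold change was -0.20 (SE 0.21, edgeR adjusted p = 0.818), and 0.0006 without KO replicate 3. Its other arm miR-127-5p had 683.4, 656.7 and 843.4 CPM in KO, against 774.6, 816.4 and 786.7 CPM in WT. KO replicate 3, lowest for the 3p arm, was thus highest for the 5p arm, and the ratio of 3p to 5p reads there was 10, against 18.2 and 21.2 in KO replicates 1 and 2 and 13.8 to 18.9 in WT.

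Set against its neighbour, miR-433-3p had lower KO values in a measure that does not depend on library scaling. The log2 ratio of miR-433-3p to miR-127-3p reads was -5.29, -5.72 and -5.56 in KO and -5.08, -4.83 and -5.07 in WT. All KO values lay below all WT values, with a difference of -0.53 (p = 0.1 in an exact two-sided permutation test, 0.25 after adjustment over 10 ratios). With 3 libraries against 3, 0.1 is the smallest p this test can give.

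Opposite the 3′ end of the Rtl1 coding sequence, miR-431-5p was among the rarer members. In mouse sensory neurons this miRNA is known to promote axon growth after injury. Its levels were 26.1, 22.4 and 39.5 CPM in KO, against 22.5, 19.4 and 19.1 CPM in WT. KO replicate 2 lay just below WT replicate 1, so the groups overlapped narrowly, and KO replicate 3 was far above the rest. The log2 fold change was 0.53 (SE 0.25, 95% interval -0.04 to 1.09, edgeR adjusted p = 0.749) and 0.27 without KO replicate 3 (edgeR adjusted p = 0.437). The 3p arm of the same hairpin went the other way in that library, since miR-431-3p had 30.4, 22.7 and 18.3 CPM in KO, against 27.5, 24.4 and 23.3 CPM in WT. The ratio of 5p to 3p reads was accordingly 0.861, 0.985 and 2.16 in KO and 0.821, 0.795 and 0.819 in WT. The log2 ratios did not overlap (difference 0.59, exact permutation p = 0.1, adjusted p = 0.25), and without KO replicate 3 the difference was 0.18.

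**Figure D3:**
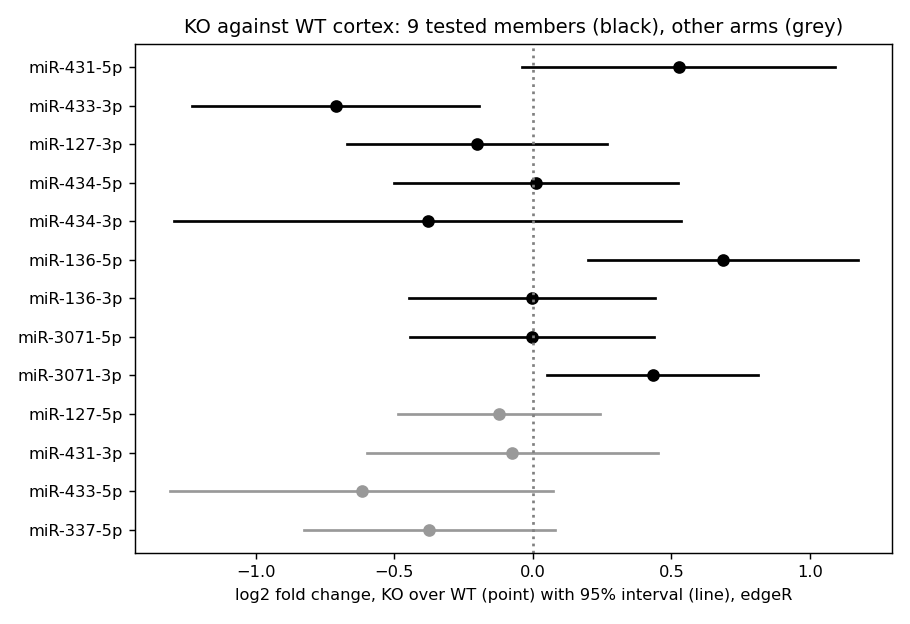
Log2 fold change of KO over WT cortex for the 9 tested members (black) and the other arms of their hairpins (grey), from edgeR. Points are estimates and lines their 95% intervals. The interval lies above 0 for miR-136-5p and miR-3071-3p, below 0 for miR-433-3p, and includes 0 for the others.

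The miR-434 hairpin gave the second most abundant member from its 5p arm and a less abundant one from its 3p arm. It is shown with both mature arms in capitals, since the arms differed in how KO replicate 3 behaved.
miR-434 hairpin: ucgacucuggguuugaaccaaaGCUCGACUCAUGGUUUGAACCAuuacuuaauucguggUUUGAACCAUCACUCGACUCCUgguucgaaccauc
Levels of miR-434-5p were 11554, 14152 and 7336 CPM in KO, against 10541, 10749 and 11489 CPM in WT. The KO libraries spread on both sides of a narrow WT range, and the log2 fold change was 0.01 (SE 0.22, edgeR adjusted p = 0.993), a value whose sign varied among the processing alternatives. For miR-434-3p the levels were 1214, 1418 and 391.4 CPM in KO, against 1281, 1378 and 1277 CPM in WT. KO replicates 1 and 2 were close to WT, while KO replicate 3 differed from the WT mean by -1.75 log2 units, the largest such departure among the members. The log2 fold change was -0.38 (SE 0.40, edgeR adjusted p = 0.818), and 0.02 without KO replicate 3. The ratio of 5p to 3p reads was 9.52, 9.98 and 18.7 in KO and 8.23, 7.80 and 9.0 in WT. All KO ratios were above all WT ratios, by narrow margins in KO replicates 1 and 2 (log2 difference 0.54, exact permutation p = 0.1, adjusted p = 0.25). Without KO replicate 3 the log2 difference was 0.23.

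At the start of the Rtl1 coding sequence, miR-136 and miR-3071 are transcribed from opposite strands of the same stretch. Both hairpins are shown with their mature arms in capitals.
miR-136 hairpin: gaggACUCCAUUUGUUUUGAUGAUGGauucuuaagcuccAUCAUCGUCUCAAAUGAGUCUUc
miR-3071 hairpin: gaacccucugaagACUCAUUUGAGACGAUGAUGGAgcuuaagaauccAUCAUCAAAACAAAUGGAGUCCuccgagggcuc
The 5p arm of each hairpin is opposite the 3p arm of the other. The 4 mature sequences follow, with the bases that are paired to the opposite strand's product in capitals, 20 in the first pair and 19 in the second.
mmu-miR-136-5p: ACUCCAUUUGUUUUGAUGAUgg
mmu-miR-3071-3p: AUCAUCAAAACAAAUGGAGUcc
mmu-miR-136-3p: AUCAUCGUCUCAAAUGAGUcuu
mmu-miR-3071-5p: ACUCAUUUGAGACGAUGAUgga

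Both miRNAs of the first pair had higher values in KO. Levels of miR-136-5p, an exact complement of Rtl1, were 124.2, 187.2 and 170.1 CPM in KO, against 94.1, 108.5 and 96.7 CPM in WT. Those of miR-3071-3p, which has the sequence of Rtl1 itself, were 669.0, 696.4 and 545.0 CPM in KO, against 446.2, 504.5 and 465.1 CPM in WT. In both cases every KO library was above every WT library. KO replicate 3 lay between the other KO libraries for miR-136-5p and was the lowest of them for miR-3071-3p. The log2 fold change was 0.69 for miR-136-5p (SE 0.21, 95% interval 0.20 to 1.17, edgeR adjusted p = 0.694). For miR-3071-3p it was 0.43 (SE 0.17, 95% interval 0.05 to 0.81, edgeR adjusted p = 0.705). Without KO replicate 3 miR-3071-3p passed the threshold at 0.55 (edgeR adjusted p = 0.0227, beside 14 of 560 miRNAs or 2.50% called higher in KO), and miR-136-5p did not at 0.66 (edgeR adjusted p = 0.0542). With any other single library left out neither passed.

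In the second pair the products of the opposite strands had almost the same counts and cannot be told apart. In KO replicates 1, 2 and 3, miR-136-3p had 6401, 6289 and 5768 reads and miR-3071-5p had 6352, 6225 and 5717 reads. In the WT libraries miR-136-3p had 7316, 7847 and 5886 reads, and miR-3071-5p had 7232, 7770 and 5861 reads. The largest difference was 1.15% of the reads, in WT replicate 1. Among features with at least 200 reads over the libraries, 14 pairs differed by at most 3% in every library, and in 9 of them the 2 sequences overlap on opposite strands, while for the other 5 no position was found by name for both. Whether reads were counted by strand is not stated, and how reads were divided at the miR-136 and miR-3071 locus was not tested. The levels of miR-136-3p were 436.9, 529.0 and 475.5 CPM in KO, against 479.5, 577.7 and 387.1 CPM in WT, which overlapped. Its log2 fold change was -0.0031 (SE 0.19, edgeR adjusted p = 0.994), and that of miR-3071-5p was -0.0032, values whose sign changed with the scaling.

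The first pair differed from this. Reads of miR-136-5p were 1820, 2226 and 2063 in KO and 1435, 1473 and 1471 in WT, and those of miR-3071-3p were 9802, 8280 and 6612 in KO and 6807, 6852 and 7072 in WT. The minus-strand product was therefore counted several times as often as the plus-strand product. The ratio of miR-136-5p to miR-3071-3p was 0.186, 0.269 and 0.312 in KO and 0.211, 0.215 and 0.208 in WT. It was nearly constant in WT and varied in both directions in KO (log2 difference 0.24, exact permutation p = 0.4, adjusted p = 0.667).

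The ratio of miR-136-5p to miR-136-3p counts had higher values in every KO library than in any WT library. Its denominator is the count that cannot be told apart from that of miR-3071-5p, so it need not be a balance between the arms of the miR-136 hairpin. The values were 0.284, 0.354 and 0.358 in KO and 0.196, 0.188 and 0.250 in WT. The log2 difference was 0.66 (-1.60 ± 0.19 in KO against -2.25 ± 0.22 in WT, SD over n = 3 each; exact permutation p = 0.1, adjusted p = 0.25), and it ranged from 0.58 to 0.78 as each library was left out. For the ratio of miR-3071-3p to miR-3071-5p, which uses the same near-identical counts as its denominator, the values were 1.54, 1.33 and 1.16 in KO and 0.941, 0.882 and 1.21 in WT. They overlapped at KO replicate 3 and WT replicate 3 (log2 difference 0.42, exact permutation p = 0.2, adjusted p = 0.4). These ratios are not independent of each other, since they rest on the same 4 products of 1 locus.

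**Figure D4:**
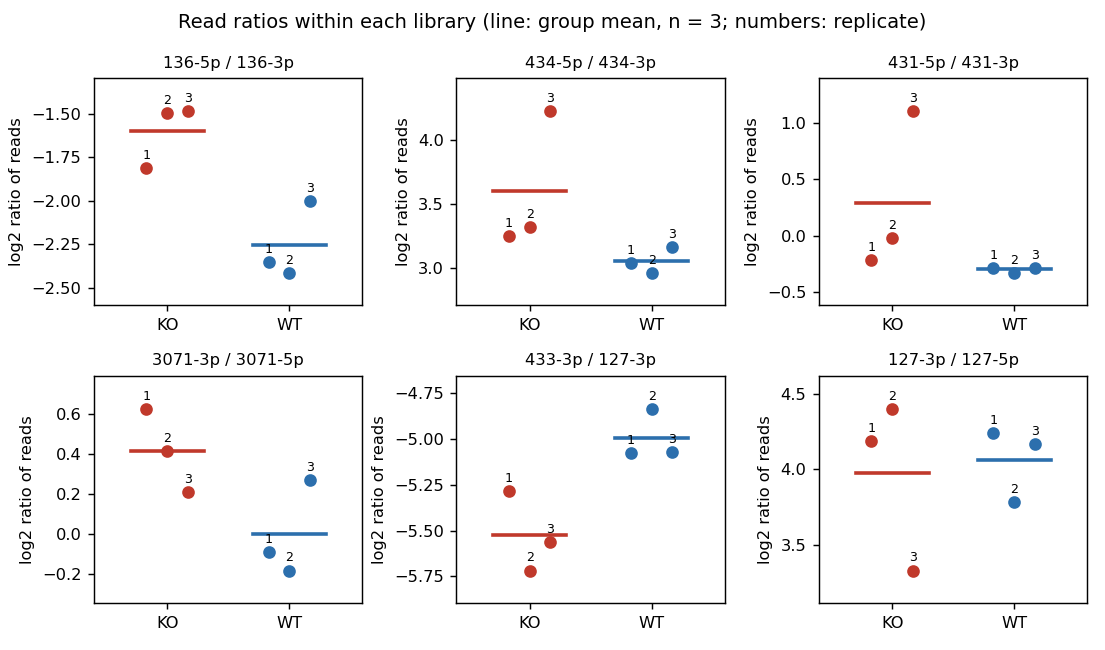
Log2 ratios of reads between arms of a hairpin, and between miR-433-3p and miR-127-3p, in each library. Points are libraries with their replicate numbers and lines are group means over 3 libraries. KO and WT points are apart for miR-136-5p over miR-136-3p, miR-434-5p over miR-434-3p, miR-431-5p over miR-431-3p and miR-433-3p over miR-127-3p, and in the miR-434 and miR-431 panels KO replicate 3 lies far above the other libraries.

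The remaining member, miR-337-3p, was close to absent and did not pass the filter on low counts. It had 1, 2 and 9 reads in KO and 8, 2 and 5 reads in WT, too few for any statement on genotype. Its hairpin is also overlapped by one on the opposite strand, miR-3544, whose 5p product had 1, 2 and 9 reads in KO and 6, 1 and 5 reads in WT. The overlapping bases of the 2 products, 21 in number, are in capitals.
mmu-miR-337-3p: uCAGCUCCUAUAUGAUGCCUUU
miR-3544-5p: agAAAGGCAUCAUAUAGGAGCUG
The 5p arm of the miR-337 hairpin was the abundant one, with 125.3, 122.0 and 90.6 CPM in KO, against 140.7, 149.2 and 148.4 CPM in WT. All KO values of miR-337-5p were below all WT values, with KO replicate 3 lowest (log2 fold change -0.37, SE 0.20, edgeR adjusted p = 0.749).

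All 4 arms of these hairpins that are not among the 10 members had lower mean values in KO, with log2 fold changes from -0.62 for miR-433-5p to -0.07 for miR-431-3p, and 0 of 4 passed the edgeR threshold. The sign for miR-431-3p changed to 0.10 without KO replicate 3. The rest of the Dlk1-Dio3 domain was measured with 71 tested miRNAs of 90 in the table. Of these, 27 had higher and 44 lower estimates in KO, and 0 passed, with a median of -0.11 log2 units and 13 whose groups did not overlap (18.3%). Over all tested miRNAs the groups did not overlap for 15.7%. The proximal list, with 14 tested, lies on either side of the GENCODE transcript of Rtl1. Its hairpins of miR-673, miR-493, miR-540 and miR-665 fall within the longer RefSeq span of Rtl1, as does that of miR-337. The listed miR-3070 hairpins also fall within that span, but their products were not among the 14 tested. The most abundant of the 14 were miR-370-3p and miR-770-3p. Levels of miR-370-3p were 9426, 8244 and 4419.7 CPM in KO, against 7463, 7438 and 8225 CPM in WT, with KO replicate 3 lowest as for miR-127-3p and miR-434-5p. Those of miR-770-3p, from the Meg3 gene, were 555.2, 362.1 and 332.4 CPM in KO, against 427.9, 360.0 and 428.5 CPM in WT. Among the 57 tested in the distal cluster, miR-379-5p averaged 6233 ± 1629 CPM in KO, against 5804 ± 75.7 CPM in WT and miR-411-5p 5649 ± 503 CPM in KO, against 5626 ± 186 CPM in WT (SD, n = 3 each). None of these 4 differed beyond the spread between libraries (log2 fold changes from -0.07 to 0.10, edgeR adjusted p of at least 0.882). Without KO replicate 3 the distal miRNAs miR-300-3p and miR-381-3p passed, both lower in KO (-0.52 and -0.48, edgeR adjusted p = 0.0424 and 0.0402). They were 2 of the 73 miRNAs of the rest of the domain tested in that fit. Over all miRNAs in it, 18 of 560 passed (3.21%), 4 of them lower in KO (0.714%).

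**Figure D5:**
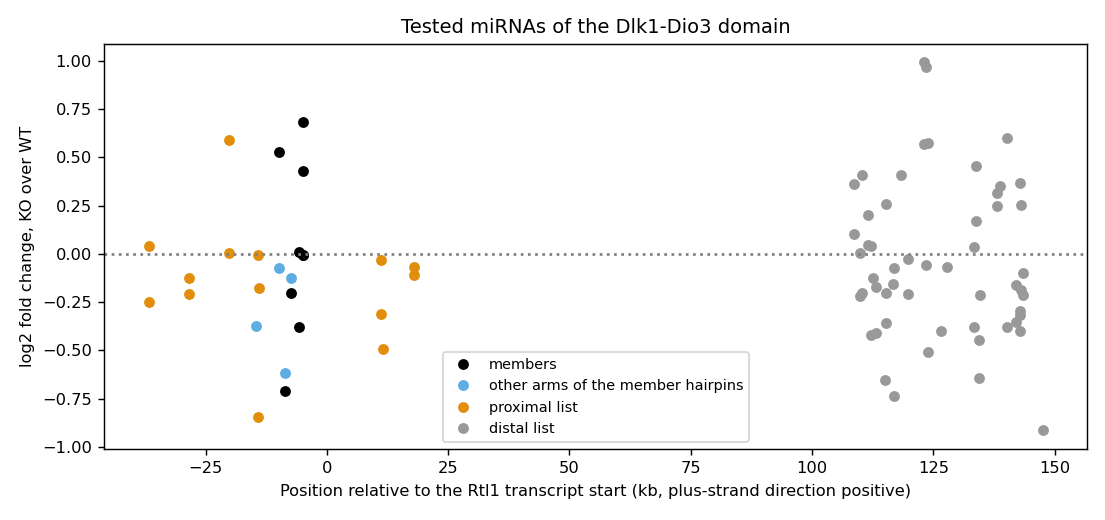
Log2 fold change of KO over WT for 81 tested miRNAs of the Dlk1-Dio3 domain that could be placed, against the position of their hairpin relative to the Rtl1 transcript start in kilobases. Black points are the members, blue points the other arms of their hairpins, orange points the proximal list and grey points the distal list. Members lie both above and below 0 over a few kilobases.

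The miRNA outside the group whose pattern over the 6 libraries was nearest to each member was found by the root mean square difference of centred log2 CPM. For miR-433-3p it was miR-330-3p (0.14 log2 units), for miR-127-3p miR-30d-5p (0.04), for miR-434-3p miR-6540-5p (0.10) and for miR-431-5p miR-139-5p (0.11). For miR-136-5p it was miR-30f (0.12) and for miR-3071-3p miR-30e-3p (0.10). None of the nearest miRNAs came from the Dlk1-Dio3 domain.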

How the data were processed

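The 6 small RNA libraries from cortex (3 KO, 3 WT) were ligated, amplified by PCR, size-selected and sequenced from a single end, per the labels' protocols. The submitters' processing notes name Bowtie, DESeq2 and mm10. The miRBase release, mismatches, treatment of multi-mapping reads and use of strand are not stated in the sources used here. Per the file headers the authors deposited read counts per mature miRNA, without normalization, and TPM values. Each deposited TPM equals the count over the library total on the TPM scale (largest deviation 4.9e-10), so the TPM were not used further. There were 0 columns of no sample.

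Counts were fitted in R 4.3.3 with edgeR 4.0.16 (filterByExpr at a minimum count of 10, TMM, robust quasi-likelihood F test, Benjamini-Hochberg over 541 features, threshold 0.05). TMM factors ran from 0.8265 to 1.092. Ratios of reads were tested with exact two-sided permutation tests in SciPy 1.17.1. Alternatives were RLE factors, scaling without the 5 most abundant miRNAs, no filter, DESeq2 1.42.0, limma-voom (limma 3.58.1), 1 of each near-identical pair left out, and each library left out. The fit was tested on simulated counts. Replicate numbers follow accession order. The p-values weigh group differences against the variation between these libraries. The labels do not tie each library to 1 animal, so this may not be the variation between animals. Within-genotype pairs of libraries differed by at least 47.7 in chi-square per degree of freedom, so none looked like a duplicate. Reads are not unique molecules.

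Named miRNAs were the members, the other arms of their hairpins, the 2 most abundant of each domain list and the nearest pattern to each member. Further names were chosen after their values were seen: miR-3544-5p, miR-300-3p and miR-381-3p. Members and lists were chosen with earlier results of these data known. Sequences are from RefSeq (GRCm38.p6) and Rtl1-201 from GENCODE M21 (GRCm38, the assembly of mm10), and all 10 members matched by name.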

Additional observations from a re-analysis of the deposited data

How the results depend on the processing

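Among the alternatives run, calls appeared only when KO replicate 3 was left out. Without it 18 of 560 miRNAs passed the edgeR threshold where none had passed with all libraries, 2 of the members (miR-433-3p at -0.50 and miR-3071-3p at 0.55 log2 units) and 2 of the rest of the Dlk1-Dio3 domain. With another library left out, and under each other alternative, 0 passed in all 3 sets, and the cause was not tested. Over left-out libraries the estimates ranged from -0.90 to -0.50 for miR-433-3p, 0.53 to 0.85 for miR-136-5p, 0.32 to 0.55 for miR-3071-3p and 0.27 to 0.66 for miR-431-5p, and these 4 kept their direction under all alternatives run. Ranges that crossed 0 were -0.40 to 0.0006 for miR-127-3p, -0.26 to 0.25 for miR-434-5p, -0.78 to 0.0226 for miR-434-3p, -0.13 to 0.18 for miR-136-3p, -0.12 to 0.17 for miR-3071-5p and -0.28 to 0.10 for miR-431-3p. The estimate of miR-434-5p was -0.039 with limma-voom. Those of miR-136-3p and miR-3071-5p were 0.0275 and 0.0274 with RLE factors, 0.0165 and 0.0164 without the filter, 0.0289 and 0.0287 when the 5 most abundant miRNAs were left out of the scaling, 0.0131 and 0.0129 with DESeq2, and 0.0118 and 0.0113 with limma-voom. With near-identical pairs counted once miR-136-3p was at 0.021. RLE factors and scaling without the 5 most abundant miRNAs each moved the median of all miRNAs by 0.03.

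Of the ratios, that of miR-433-3p to miR-433-5p ranged from -0.17 to 0.0729 over left-out libraries, miR-127-3p to miR-127-5p from -0.31 to 0.23, miR-136-3p to miR-3071-5p from -0.0026 to 0.0027, and miR-337-3p to miR-337-5p from -1.22 to 0.74. The last was 0.0101 with 0.5 added to each count and is limited by its 1 to 9 reads per library. No paired analysis was possible because the labels give no replicate numbers shared between genotypes.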
